A study of Mus musculus with 12 samples.

Results

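TGF-beta ligand, receptor and response genes were followed in bulk RNA-seq of 12 orthotopic tumors of 4T1, a mouse mammary carcinoma cell line grown in the breast tissue of Balb/c mice with an intact immune system. The 8 genes were chosen by name as rows of a table of 55401 genes: the ligands Tgfb1, Tgfb2 and Tgfb3, the receptors Tgfbr1 and Tgfbr2, the target Tgfbi, the activin subunit gene Inhba, and Thbs1. All 8 were found and all 8 passed the filter on low values (15504 genes with at least 1 TPM, a level per transcript length scaled to the same total in each library, in at least 3 libraries), so none had to be left out. Mice received a control IgG (an isotype IgG1-Fc protein in the labels), IL-10-Fc, αCSF1R or BF10. IL-10-Fc is interleukin-10 fused to an antibody Fc part. αCSF1R is an antibody that blocks the colony stimulating factor 1 receptor, the survival receptor of most macrophages. BF10 is a fusion of human interleukin-10 with the anti-CSF1R antibody. Each group had 3 libraries, counted here as 3 tumors, although the labels do not state that they come from separate mice. All 4 groups carried the same tumor line in the same mouse strain, and dosing began at a tumor volume of 100 mm3. The labels give 6 doses and the series description gives fewer, so the number of doses is uncertain. The labels do not give the age of the mice.

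TGF-beta is secreted in a latent form, in which the mature dimer stays wrapped in its own propeptide and is tethered to the matrix or to a cell surface until an integrin, a protease or thrombospondin-1 releases it. The active ligand binds the type II receptor, which phosphorylates the type I receptor, which in turn phosphorylates SMAD proteins that enter the nucleus and switch target genes. In tumors the pathway is known for restraining T cells, for driving fibroblasts to make matrix and for being fed by macrophages, platelets, stromal cells and the tumor cells themselves.

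The following stretches of coding sequence show motifs known for integrin binding or for the activation of latent TGF-beta. Tgfbi is not a ligand, and its motif is shown as an integrin-binding motif only. The capitals mark the codons for arginine-glycine-aspartate, the integrin-binding motif, or, in Thbs1, for lysine-arginine-phenylalanine-lysine, the motif known for activating latent TGF-beta.
Tgfb1: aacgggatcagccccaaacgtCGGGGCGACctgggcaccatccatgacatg
Tgfb3: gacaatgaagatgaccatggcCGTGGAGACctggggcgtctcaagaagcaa
Tgfbi: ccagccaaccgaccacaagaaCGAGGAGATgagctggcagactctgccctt
Thbs1: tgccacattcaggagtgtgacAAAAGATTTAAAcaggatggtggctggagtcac
They were read from the GENCODE M21 transcripts of GRCm38. The Tgfb1 stretch runs over the junction of exons 4 and 5 of 7 (chr7:25696992-25697171, plus strand) and encodes the motif at residues 244 to 246 of 390. The Tgfb3 stretch lies in exon 5 of 7 (chr12:86062144-86062194, minus strand), with the motif at residues 261 to 263 of 412. In Tgfbi the stretch joins exons 14 and 15 of 17 (chr13:56636665-56637184, plus strand), with the motif at residues 642 to 644 of 683, near the end of the secreted protein. In Thbs1 it joins exons 8 and 9 of 22 (chr2:118117630-118118187, plus strand), with the motif at residues 431 to 434 of 1171. The longest annotated Tgfb2 protein, of 442 residues, held neither motif. Thbs1 also held 1 arginine-glycine-aspartate motif, which is not shown.

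The 8 genes lie apart in the genome, apart from a pair on chromosome 13. In GRCm38 coordinates, Tgfb1 (ENSMUSG00000002603) occupies chr7:25687002-25705077, Tgfb2 (ENSMUSG00000039239) chr1:186622792-186705989 and Tgfb3 (ENSMUSG00000021253) chr12:86056745-86079041. Tgfbr1 (ENSMUSG00000007613) occupies chr4:47353222-47414931 and Tgfbr2 (ENSMUSG00000032440) chr9:116084293-116175360. Tgfbi (ENSMUSG00000035493) lies at chr13:56609523-56639562 and Inhba (ENSMUSG00000041324) at chr13:16011851-16031621, while Thbs1 (ENSMUSG00000040152) lies at chr2:118111876-118127133. The values are whole-gene levels summed over transcripts, so they do not tell exons or isoforms apart.

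One property of the libraries touched the results on all 8 genes. The sum of the deposited values split the 12 libraries into 5 higher-sum libraries (782919 to 921581) and 7 lower-sum libraries (609695 to 648413). The higher-sum libraries were control IgG 4 and 7, IL-10-Fc 7, αCSF1R 8 and BF10 6, so that the control group held 2 of them and each treated group 1. Transcripts of ribosomal protein genes made up 19.5 to 23.8% of TPM in the former and 11.9 to 14.2% in the latter, and mitochondrial transcripts 5.90 to 9.26% against 3.14 to 3.97%. Read depth of each library is not in the deposited values. An estimate from low values gave 0.916 to 1.06 of the median depth, but it kept only pairs of values near each other. It therefore could not show a large difference in depth. Checked against the labelled tissue, epithelial markers (Krt8, Krt18, Epcam and 4 others) summed to 682 to 1479 TPM in the higher-sum and 1641 to 2317 TPM in the lower-sum libraries. None was at 0 in every library. Tissue content was uneven. Skeletal muscle markers (4 genes) summed to 49.4 TPM in IL-10-Fc 7 and to 2.77 to 8.56 TPM elsewhere, and adipocyte markers (4 genes) to 34.8 to 568 TPM.

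Tgfbi, a secreted matrix protein named for its induction by TGF-beta and also made by macrophages, was the member called once the library set was a term in the fit. It measured 43.3, 115 and 55.0 TPM in control IgG 4, 5 and 7, 123, 153 and 61.0 TPM in IL-10-Fc 2, 4 and 7, 37.4, 24.5 and 5.86 TPM in αCSF1R 4, 6 and 8, and 267, 66.6 and 210.1 TPM in BF10 3, 6 and 7. Each αCSF1R library was below each library of the other 3 groups, while the control IgG, IL-10-Fc and BF10 libraries overlapped. The lowest library of every treated group was its higher-sum one. Group means were 71.2 ± 38.6 TPM for control IgG, 112.2 ± 46.8 for IL-10-Fc, 22.6 ± 15.9 for αCSF1R and 181 ± 103 for BF10 (SD, n = 3 each).

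**Figure D1:**
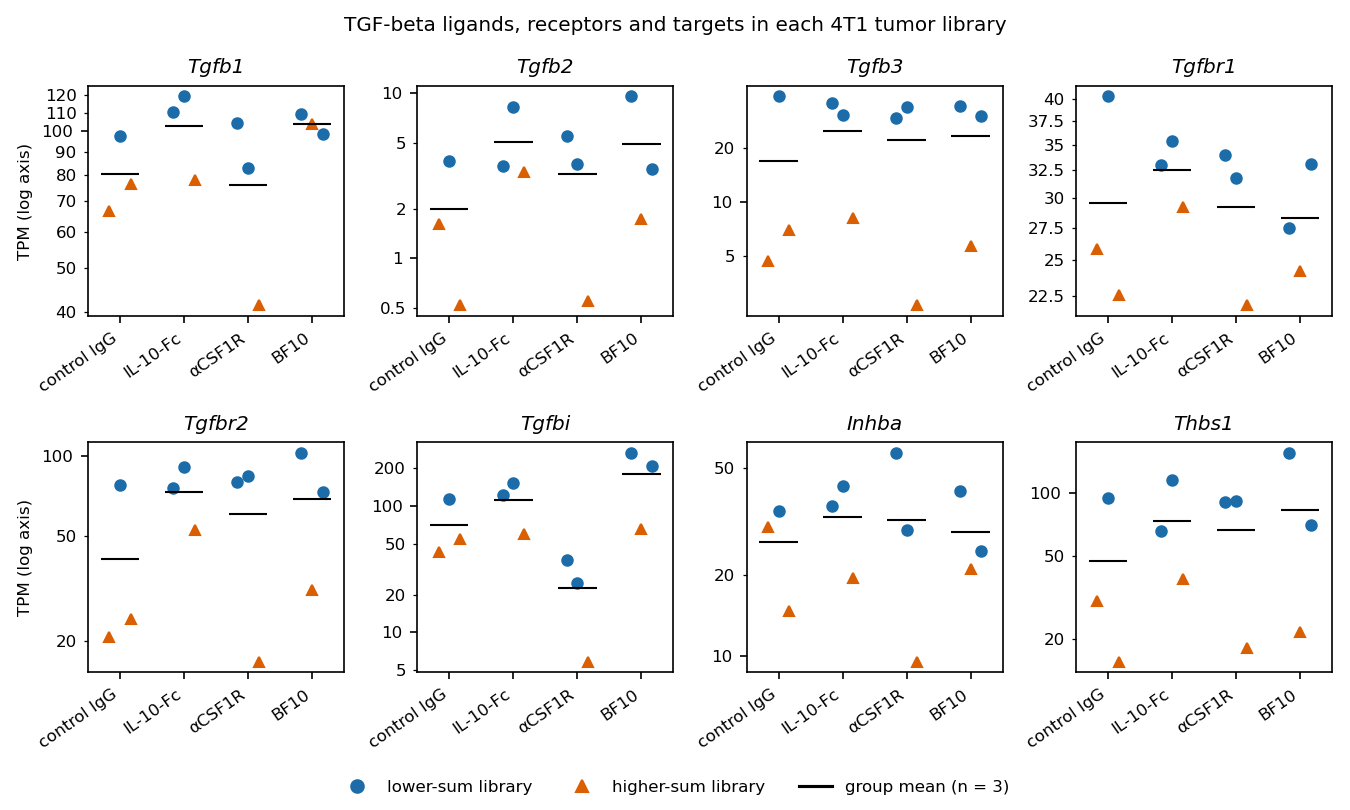
Level of each of the 8 genes in each library by treatment group, in TPM on a log axis, with circles for lower-sum and triangles for higher-sum libraries and a bar at the group mean of 3. The 3 αCSF1R libraries sit below all others for Tgfbi (5.86 to 37.4 TPM), and for Tgfb3 the 5 triangles (2.64 to 8.10 TPM) sit below the 7 circles (29.7 to 39.0 TPM) whatever the treatment.

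Whether blocking CSF1R alone changed the pathway was asked by setting αCSF1R against control IgG. With the 4 treatment groups as the terms of the limma fit, Tgfbi was 1.81 lower on the log2(TPM + 1) scale (SE 0.71), a 3.50-fold difference with an unadjusted p of 0.0270 and an adjusted p of 0.893, so 0 of the 8 genes were called (adjusted p under 0.05 and at least 1.5-fold), against 0.568% of all genes tested. With the library set as a further term, Tgfbi fell by 2.34 (SE 0.26, adjusted p = 0.000469, limma), a 5.06-fold decrease, and was the only member called, beside 2.01% of all genes. Taken within 1 set at a time, the difference was -1.89 (lower-sum) and -2.86 (higher-sum). Tgfbi was 1 of 8 members without overlap between αCSF1R and control IgG, a state shared by 5.28% of all genes.

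The contrast between BF10 and the antibody alone gave the widest gap. The 2 proteins differ by the interleukin-10 part, but BF10 tumors did not share the low macrophage markers of αCSF1R tumors. The 10 markers read below summed to 1720 to 1808 TPM in BF10 and 81.3 to 257 TPM in αCSF1R. The contrast therefore cannot isolate interleukin-10. Tgfbi was 3.05 higher in BF10 than in αCSF1R on the log2 scale (SE 0.71), 8.29-fold, with an unadjusted p of 0.00129 and an adjusted p of 0.120. Members called numbered 0 of 8, against 0.735% of all genes. With the library set as a term the same difference of 3.05 carried an SE of 0.25 (adjusted p = 6.55e-05, limma), and Tgfbi rose while the other 7 members were not called, beside 2.82% of all genes. It was 2.93 within the lower-sum and 3.30 within the higher-sum libraries. Tgfbi was again the 1 member whose groups did not overlap, beside 5.91% of all genes.

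The difference of differences asks whether the fusion did the sum of what its components did. For Tgfbi, the BF10 change exceeded the sum of the IL-10-Fc and αCSF1R changes by 2.37 (SE 1.00, unadjusted p = 0.0373, adjusted p = 0.975, limma), and 0 of 8 members were called against 0.29% of all genes. With the library set as a term the excess was 2.91 (SE 0.36, adjusted p = 0.00215), Tgfbi was the 1 member called and 1.21% of all genes were called. Against control IgG, BF10 stood at 1.24 (SE 0.71, adjusted p = 0.788), or 0.71 with the set term (SE 0.26, adjusted p = 0.993), and IL-10-Fc at 0.68 (SE 0.71, adjusted p = 0.738), or 0.15 with the set term (SE 0.26, adjusted p = 0.954). Neither difference passed the test. The calls with the set term held in all 12 fits that left out 1 library, in which the αCSF1R difference from control IgG ranged from -2.57 to -2.01 and the BF10 difference from αCSF1R from 2.79 to 3.32.

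Nrros, which encodes the LRRC33 protein that holds latent TGF-beta on myeloid cells, was the pathway gene outside the 8 that separated in the same comparisons. It measured 10.5, 26.6 and 11.6 TPM in control IgG 4, 5 and 7, 23.5, 23.5 and 12.5 TPM in IL-10-Fc 2, 4 and 7, 8.15, 6.71 and 1.39 TPM in αCSF1R 4, 6 and 8, and 41.5, 11.3 and 23.8 TPM in BF10 3, 6 and 7. The αCSF1R libraries lay below all others, and the other 3 groups overlapped. Nrros was 1.52 lower in αCSF1R than in control IgG (SE 0.61, adjusted p = 0.893), and with the set term it fell by 1.96 (SE 0.24, adjusted p = 0.00128, limma). Between BF10 and αCSF1R the difference was 2.09 (SE 0.61, adjusted p = 0.362), called with the set term (SE 0.24, adjusted p = 0.000495). The difference of differences was 1.75 (SE 0.86, adjusted p = 0.975) and was called with the set term at 2.19 (SE 0.34, adjusted p = 0.00917).

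**Figure D2:**
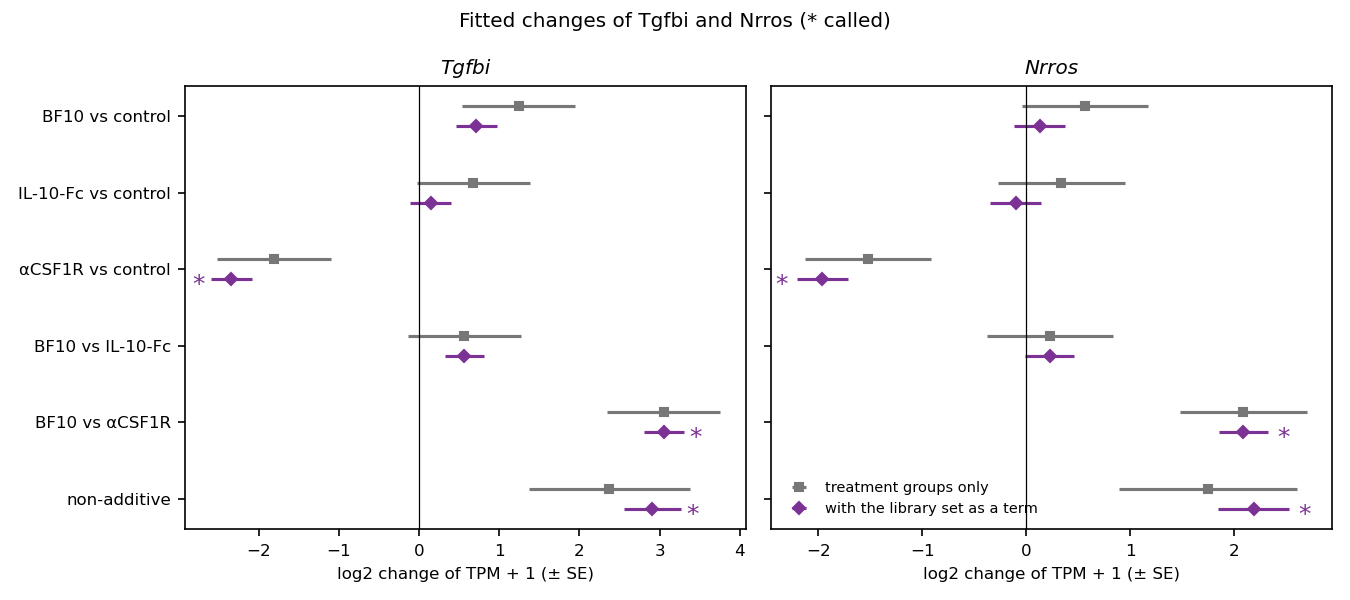
Fitted log2 change of Tgfbi and Nrros (horizontal axis, ± SE) in the 5 pairwise comparisons and the difference of differences, with squares for the fit on treatment groups only and diamonds for the fit with the library set as a term. Asterisks mark calls, which appear for αCSF1R against control, BF10 against αCSF1R and the difference of differences with the set term only, as at -2.34, 3.05 and 2.91 for Tgfbi.

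Macrophage markers moved in the same libraries. The 10 markers (among them Csf1r, Adgre1, Cd68, Mrc1 and the C1q genes) summed to 1761 to 2253 TPM in control IgG, 1467 to 1661 in IL-10-Fc, 81.3 to 257 in αCSF1R and 1720 to 1808 in BF10, with none at 0 in every library. All 10 had a lower fitted level in αCSF1R than in control IgG, of which 6 fell by the test and 8 with the set term. In BF10 against αCSF1R 6 were called higher, and 9 with the set term, at a median of 2.82 where Tgfbi stood at 3.05. In the difference of differences 4 were called higher, and 8 with the set term, at a median of 2.97 where Tgfbi stood at 2.91. With the set term these 2 contrasts called 2.82% and 1.21% of all genes. Tgfbi equalled 14.5, 14.0 and 7.20% of the marker sum in αCSF1R 4, 6 and 8, against 2.46, 6.44 and 2.44% in control IgG 4, 5 and 7, so each αCSF1R ratio was above each control ratio. In BF10 3, 6 and 7 the ratio was 15.5, 3.68 and 12.1%, and in IL-10-Fc 2, 4 and 7 it was 7.43, 9.19 and 4.16%. BF10 thus overlapped every other group. The C1q genes held most of the marker sum in each library, and the order depended on the marker. Each αCSF1R ratio of Tgfbi was above each control ratio against C1qa or C1qb alone, and below against Cd68 alone. Against each other marker alone the ratios of the groups overlapped. In bulk tumor RNA, fewer macrophages and less RNA of a gene in each macrophage cannot be told apart, and the part of macrophage number in the Tgfbi and Nrros values was not tested. Neutrophil markers (7 genes) summed to 16950, 1707 and 721 TPM in BF10 3, 6 and 7, and to 428 to 3361 TPM in αCSF1R. They summed to 828 to 1801 TPM in control IgG and 932 to 2188 TPM in IL-10-Fc. BF10 3 held the highest neutrophil sum and the highest Tgfbi, and BF10 7 the next highest Tgfbi with the lowest sum of its group. None of the 7 was called.

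**Figure D3:**
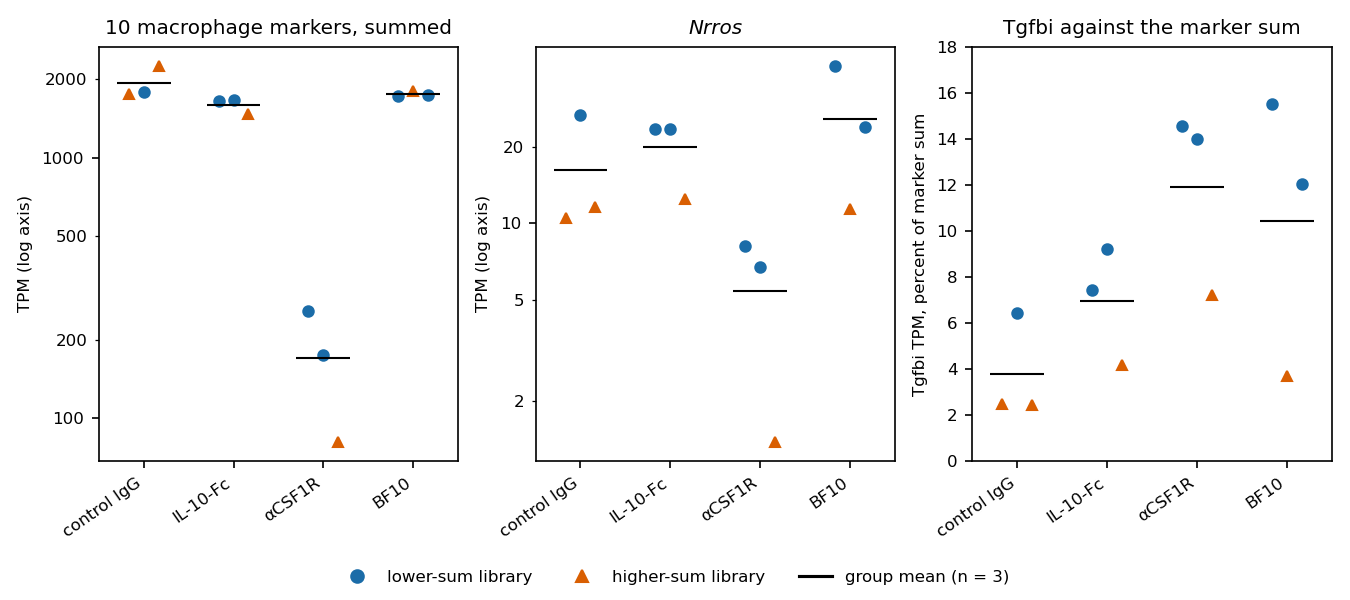
Summed level of 10 macrophage markers and level of Nrros in each library (TPM, log axes), and Tgfbi as a percent of that marker sum (linear axis), by treatment group, with circles for lower-sum and triangles for higher-sum libraries and bars at the mean of 3. The αCSF1R libraries hold the lowest marker sums (81.3 to 257 TPM) and Nrros levels (1.39 to 8.15 TPM). Their Tgfbi ratios to this sum, which the C1q genes dominate, lie above those of control IgG (7.20 to 14.5% in αCSF1R).

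The gene whose level followed each member most closely was sought over the 12 libraries, after each gene's mean in its library set was taken off and its values were standardized. For Tgfbi the nearest of 15503 genes was Pik3cg, the catalytic subunit of a leukocyte phosphoinositide 3-kinase, at a root mean square difference of 0.113, where the median gene was at 1.31. The nearest gene to Tgfb2 was Srpx2 at 0.170, to Thbs1 Ccn3 at 0.230, to Tgfbr2 Guk1 at 0.210, to Tgfb3 Tbc1d14 at 0.256 and to Tgfb1 Mapkapk2 at 0.289. Tgfbr1 and Inhba had no gene nearer than Gm34342 at 0.401 and Rhoq at 0.421. These distances describe 12 points that share 4 treatments.

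The starts of Tgfbi and Nrros are shown because both genes separated in the same comparisons. The sequences, from RefSeq on GRCm38.p6, end before the first annotated transcript of either source, which leaves 187 bases for Tgfbi and 250 for Nrros, and the capitals mark a GC box (GGGCGG, either strand).
Tgfbi: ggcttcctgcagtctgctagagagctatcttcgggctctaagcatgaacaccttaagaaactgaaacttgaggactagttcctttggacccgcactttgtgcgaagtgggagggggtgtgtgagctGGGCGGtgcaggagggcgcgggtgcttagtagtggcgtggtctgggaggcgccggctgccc
Nrros: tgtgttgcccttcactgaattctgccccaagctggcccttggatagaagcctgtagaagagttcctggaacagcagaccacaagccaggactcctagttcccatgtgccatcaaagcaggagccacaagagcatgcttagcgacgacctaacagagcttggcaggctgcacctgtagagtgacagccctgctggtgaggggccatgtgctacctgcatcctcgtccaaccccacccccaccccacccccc
The Tgfbi stretch is chr13:56609336-56609522 on the plus strand and the Nrros stretch chr16:32165595-32165844 on the minus strand. Motifs were counted over the whole 250 bases before the RefSeq start of each gene, including the part of the Tgfbi window not shown. Tgfbi held 1 GC box and Nrros none, and 32.7% of 32851 promoter windows of 250 bases held at least 1. Neither held the letters TGANTCA (AP-1), GAGGAAGT (a PU.1 motif, PU.1 being a myeloid transcription factor) or TATAAA (the TATA box), which occurred in 6.75, 2.44 and 12.4% of all windows on either strand. Of the 6 members with a window in the table, Tgfb1, Tgfbr1 and Tgfbi held a GC box, and Tgfb2 and Inhba held TATAAA.

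Among the ligands, Tgfb1, the isoform known from immune cells and platelets, was above Tgfb3 and Tgfb3 above Tgfb2 in 12 of 12 libraries, in TPM, which is per transcript length. Tgfb1 measured 66.7, 97.7 and 76.5 TPM in control IgG 4, 5 and 7, 110.4, 119 and 78.2 TPM in IL-10-Fc 2, 4 and 7, 104 (αCSF1R 4), 83.1 (αCSF1R 6) and 41.3 TPM (αCSF1R 8) under the antibody, and 109, 104 and 98.6 TPM in BF10 3, 6 and 7. The 3 BF10 libraries lay just above the 3 control libraries, and the other groups overlapped both. Tgfb1 was the 1 member without overlap between BF10 and control IgG, beside 3.53% of all genes, and its difference of 0.39 (SE 0.32, adjusted p = 0.788) did not pass the test. In this comparison 0 of 8 members and 0% of all genes were called, and with the set term 0 of 8 and 0.00645%.

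Tgfb3, an isoform of mesenchymal and epithelial cells, split by library set and not by treatment. It measured 4.68, 39.0 and 6.97 TPM in control IgG 4, 5 and 7, 36.0, 30.6 and 8.10 TPM in IL-10-Fc 2, 4 and 7, 29.7, 34.2 and 2.64 TPM in αCSF1R 4, 6 and 8, and 34.4, 5.66 and 30.2 TPM in BF10 3, 6 and 7. The 5 low values were the 5 higher-sum libraries, and all 4 treatment groups overlapped. Tgfb2, known from development and from stromal cells, was the lowest of the 8 at 1.60, 3.86 and 0.521 TPM in control IgG 4, 5 and 7, 3.60, 8.22 and 3.32 TPM in IL-10-Fc 2, 4 and 7, 5.45, 3.69 and 0.553 TPM in αCSF1R 4, 6 and 8, and 9.48, 1.74 and 3.48 TPM in BF10 3, 6 and 7. Its higher-sum libraries (0.521 to 3.32 TPM) all lay below its lower-sum ones (3.48 to 9.48 TPM), and its treatment groups overlapped.

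The make-up of the ligand pool also split by library set. Tgfb1 took 68.7 to 75.5% of the summed TPM of the 3 ligands in the 7 lower-sum libraries and 87.3 to 93.4% in the 5 higher-sum libraries. By treatment the Tgfb1 share was 84.0 ± 12.6% in control IgG, 78.8 ± 7.41% in IL-10-Fc, 78.8 ± 12.6% in αCSF1R and 79.8 ± 11.9% in BF10 (SD, n = 3 each). The 5 comparisons gave two-sided exact permutation p-values of 0.7 to 1, all 1 after Benjamini-Hochberg adjustment over the 5, in a design where 0.1 is the smallest p possible. The summed level of the 3 ligands ranged from 121 to 158 TPM among lower-sum and from 44.5 to 111 TPM among higher-sum libraries.

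**Figure D4:**
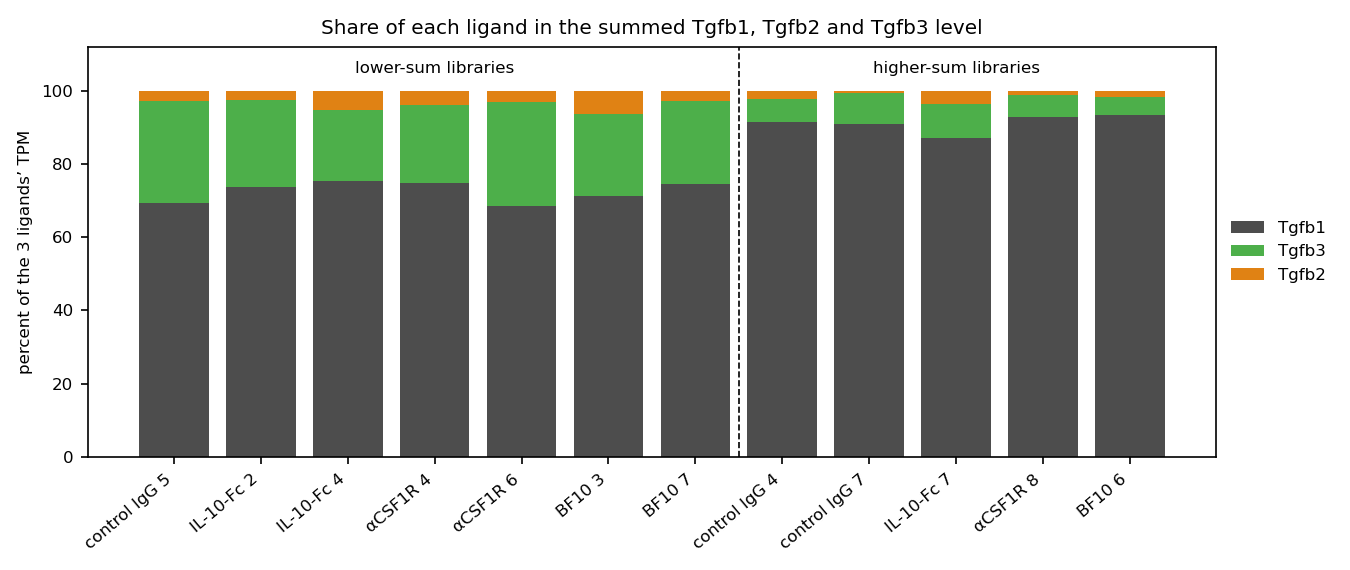
Share of Tgfb1, Tgfb3 and Tgfb2 in the summed TPM of the 3 ligands (stacked bars, percent) in each library, with lower-sum libraries to the left of the dashed line and higher-sum libraries to the right. Tgfb1 takes 68.7 to 75.5% on the left and 87.3 to 93.4% on the right, in every treatment group.

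The receptor genes differed in how far they varied. Tgfbr1, the type I receptor kinase, was the steadiest member, with 25.9, 40.3 and 22.6 TPM in control IgG 4, 5 and 7, 33.1, 35.4 and 29.2 TPM in IL-10-Fc 2, 4 and 7, 34.0, 31.8 and 21.9 TPM in αCSF1R 4, 6 and 8, and 27.5, 24.2 and 33.1 TPM in BF10 3, 6 and 7. Tgfbr2, the ligand-binding type II receptor, measured 20.8, 77.4 and 24.2 TPM in control IgG 4, 5 and 7, 75.8, 90.5 and 52.6 TPM in IL-10-Fc 2, 4 and 7, 79.9, 84.1 and 16.8 TPM in αCSF1R 4, 6 and 8, and 103, 31.1 and 73.1 TPM in BF10 3, 6 and 7. All treatment groups overlapped for both genes. Tgfbr2 exceeded Tgfbr1 in 10 of 12 libraries, with a ratio of 1.92 to 3.73 in the lower-sum and 0.764 to 1.80 in the higher-sum libraries.

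Inhba, the subunit of activin A, which signals through a related receptor pair to the same SMADs, overlapped in all groups. It measured 30.2, 34.8 and 14.8 TPM in control IgG 4, 5 and 7, 36.4, 43.1 and 19.6 TPM in IL-10-Fc 2, 4 and 7, 57.1, 29.4 and 9.55 TPM in αCSF1R 4, 6 and 8, and 41.1, 21.1 and 24.7 TPM in BF10 3, 6 and 7. Thbs1, whose protein thrombospondin-1 can free latent TGF-beta and which is itself a TGF-beta target, measured 30.5, 94.9 and 15.5 TPM in control IgG 4, 5 and 7, 65.5, 115 and 38.5 TPM in IL-10-Fc 2, 4 and 7, 90.2, 91.6 and 18.1 TPM in αCSF1R 4, 6 and 8, and 155.8, 21.5 and 70.0 TPM in BF10 3, 6 and 7. For Thbs1 the higher-sum libraries (15.5 to 38.5 TPM) all lay below the lower-sum ones (65.5 to 155.8 TPM), and the treatment groups overlapped.

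Ordered by their mean over the 12 libraries, the levels ran from Tgfbi (96.8 TPM) and Tgfb1 (90.8) through Thbs1 (67.3), Tgfbr2 (60.7), Inhba (30.2), Tgfbr1 (29.9) and Tgfb3 (21.9) to Tgfb2 (3.79). The ranges of every neighboring pair in this order overlapped. Within libraries the order was firm between Tgfb3 and Tgfb2 (12 of 12) and between Tgfbr2 and Inhba (11 of 12), and open between Inhba and Tgfbr1 (5 of 12) and between Tgfbi and Tgfb1 (5 of 12).

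The fitted differences of the 8 genes from control IgG depended on the library set. On treatment groups alone, 7 of 8 had a fitted difference above 0 in BF10, 8 of 8 in IL-10-Fc and 6 of 8 in αCSF1R, with median differences of 0.72, 0.76 and 0.20 on the log2 scale, where the medians of all genes were 0.32, 0.35 and 0.24. With the set term 5 of 8 were above 0 in BF10, 7 of 8 in IL-10-Fc and 1 of 8 in αCSF1R, the members' medians were 0.17, 0.16 and -0.24 and those of all genes 0.068, 0.10 and 0.0068. BF10 stood at a median of -0.17 against IL-10-Fc, with 2 of 8 above 0, and at 0.32 against αCSF1R, with 7 of 8 above 0. None of the 8 was called in IL-10-Fc against control IgG (0.00645% of all genes, or 0.0258% with the set term) or in BF10 against IL-10-Fc (0% in both fits), and none had groups without overlap there (6.53 and 2.13% of all genes). In both comparisons 0 of 8 had an unadjusted p below 0.05.

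Set against each other with the treatment groups held, the library sets differed in the level of the members by an amount that depended on the scaling. TPM divides each library by the sum that defines its set, so a lower TPM in the higher-sum libraries is partly built in. The split was also drawn from the values tested. All 8 had lower levels in the higher-sum libraries on the TPM scale with an adjusted p below 0.05 (limma). Of the 8, 6 were called, all lower, beside 59.2% of all genes called and 54% called lower. The difference was -2.50 for Tgfb3, -1.93 for Thbs1, -1.60 for Tgfbi, -1.52 for Tgfbr2, -1.26 for Tgfb2, -1.06 for Inhba, -0.54 for Tgfb1 and -0.45 for Tgfbr1, around a median of -0.68 over all genes. When libraries were scaled by the median of ratios, which brings the median of all genes to 0.0063, Tgfb1 and Tgfbr1 turned to 0.33 (adjusted p = 0.0433) and 0.40 (adjusted p = 0.00856, limma). The other 6 stayed below 0 with 4 called lower (Tgfb3, Thbs1, Tgfbi and Tgfbr2). Of all genes, 43.9% were called on that scale and 19.8% were called lower. Inhba (adjusted p = 0.475) and Tgfb2 (adjusted p = 0.0541) did not pass on that scale. On deposited FPKM all 8 were below 0, and 5 of 8 were called lower, not Tgfb1, Tgfbr1 or Inhba. Beside them, 49.4% of all genes were called on FPKM and 36.3% were called lower. The TPM ranges of the sets did not overlap for Tgfb2, Tgfb3, Tgfbr2 and Thbs1. The share of all genes in this state was not counted, so it cannot be read as particular to these genes. The ribosomal protein and mitochondrial shares given above moved with the sets, and their part in these differences was not tested.

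**Figure D5:**
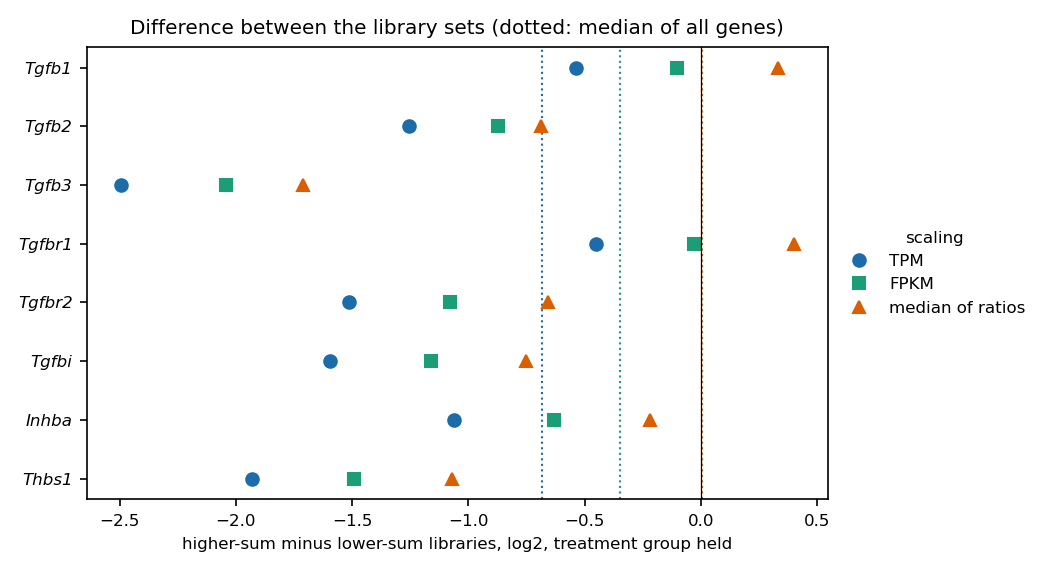
Difference of each of the 8 genes between higher-sum and lower-sum libraries with treatment groups held (log2, horizontal axis), for TPM (circles), deposited FPKM (squares) and median of ratios scaling (triangles), with dotted lines at the median of all genes for each scaling. Tgfb3 lies farthest to the left under each scaling (-2.50, -2.04 and -1.71), and Tgfb1 and Tgfbr1 cross 0 under median of ratios scaling.

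The wider pathway was read from 84 further genes in 6 roles, of which 72 passed the filter on low values. None of the 72 was called in any of the 6 comparisons by limma on treatment groups, and at an unadjusted p below 0.05 there were 2 for BF10 against control IgG, 1 for IL-10-Fc against control IgG, 1 in αCSF1R against control IgG, 0 in BF10 against IL-10-Fc, 1 in BF10 against αCSF1R and 0 in the difference of differences, where 234, 224, 537, 42, 661 and 377 of all 15504 genes fell below it. With the library set as a term the 1 called gene in αCSF1R against control IgG, in BF10 against αCSF1R and in the difference of differences was Nrros. This 1 of 72 is 1.39%, beside 2.01, 2.82 and 1.21% of all genes. By role, 4 of 10 superfamily ligands, 11 of 13 latency and activation genes, 11 of 13 receptors and coreceptors, 15 of 16 SMADs and regulators, 8 of 9 extracellular inhibitors and 23 of 23 targets were tested. The SMADs and regulators mix genes that carry the signal to the nucleus with genes that restrain it, such as Skil. Among them the fitted level was above control IgG for 14 of 15 genes in BF10, 15 of 15 in IL-10-Fc and 14 of 15 in αCSF1R, with medians of 0.28, 0.47 and 0.34 beside 0.32, 0.35 and 0.24 over all genes. With the set term those medians were -0.017, 0.12 and 0.065, beside 0.068, 0.10 and 0.0068.

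Targets and extracellular inhibitors gave separations that did not pass the test. In IL-10-Fc against control IgG, 13 of the 72 genes (18.1%) did not overlap between groups, beside 6.53% of all genes, and all 13 were higher in IL-10-Fc, a direction shared by 4.75% of all genes. They included 4 of 8 extracellular inhibitors and 8 of 23 targets, the latter with fitted differences from 0.30 to 1.76 and among them Ccn1, Ccn2, Acta2, Tnc, Vcan and Junb, named here after their values were seen. The control group held 1 more higher-sum library than IL-10-Fc, and with the set term the 8 differences were 0.24 to 1.31 with none called. Fibroblast markers (7 genes) summed to 2288 to 4414 TPM in IL-10-Fc and 724 to 2437 TPM in control IgG, and their part in these values was not tested. In BF10 against control IgG 3 of 72 genes did not overlap, beside 3.53% of all genes.

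Ccn1, a matricellular protein induced by TGF-beta and by YAP signaling, had the smallest p of the 72 genes in both comparisons that brought in interleukin-10 against control IgG. Its level was 67.0, 121 and 55.2 TPM in control IgG 4, 5 and 7, 157.5, 248 and 197 TPM in IL-10-Fc 2, 4 and 7, 226, 163.5 and 86.9 TPM in αCSF1R 4, 6 and 8, and 468, 126 and 180.4 TPM in BF10 3, 6 and 7. The BF10 and the IL-10-Fc libraries lay above all 3 control libraries, and the αCSF1R libraries overlapped them. BF10 differed from control IgG by 1.51 (SE 0.51, unadjusted p = 0.0125, adjusted p = 0.788) and IL-10-Fc by 1.36 (SE 0.51, unadjusted p = 0.0217, adjusted p = 0.738), so neither passed the test. Skil, a repressor of SMAD signaling that TGF-beta both degrades and induces, had the smallest p of the 72 between BF10 and IL-10-Fc, at -0.30 (SE 0.28, unadjusted p = 0.299, adjusted p = 1).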

How the data were processed

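Per the methods and labels, tumor RNA was extracted with TRIzol and sequenced from stranded mRNA libraries on an Illumina NextSeq. The submitters' processing notes name STAR 2.7.5a, RSEM 1.3.3, DESeq2 1.28.0 and mm10 (GRCm38), without their order. The authors deposited FPKM values with 2 decimals for 55401 genes in 12 libraries, and 4 tables of their own comparisons (log2 fold changes, p-values), which were not used. FPKM was scaled to TPM, and genes with at least 1 TPM in at least 3 libraries were tested with limma 3.58.1 (R 4.3.3) on log2(TPM + 1), with 1 mean per group over all 12 libraries, a trended variance and Benjamini-Hochberg adjustment over the 15504 genes. A call needed an adjusted p under 0.05 and at least 1.5-fold. Folds on this scale understate changes of low genes. The script was tested on simulated data. Replicates were separate libraries, which the labels do not state to be separate mice, so p-values measure the spread between these samples. The library set is the FPKM sum above or below 700000. The 8 members, the pathway and marker lists and the set split were chosen with earlier results of these data known. Other pathway genes were named if called (up to 4 in a comparison) or, with none called, for the smallest p, and for each member the nearest gene by root mean square difference. The rule named 2 nearest genes for each member, of which 1 is given, and some genes are not reported here.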

Additional observations from a re-analysis of the deposited data

How the results depend on the processing

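Of the counts of called members and pathway genes, those of BF10 against control IgG, IL-10-Fc against control IgG and BF10 against IL-10-Fc were 0 under every alternative run. Others became 1. Tgfbi among the members and Nrros among the pathway genes were called in αCSF1R against control IgG with median of ratios scaling and with the library set as a term, in BF10 against αCSF1R with those settings, and in the difference of differences with the set term. In BF10 against αCSF1R, Tgfbi was also called on FPKM without rescaling and with the lower-sum libraries only, where the 1 called pathway gene was Id2, a target, at 0.74 (adjusted p = 0.0489, limma), and Nrros was not called. Over all genes, median of ratios scaling called 134 of 15274 lower in αCSF1R against control IgG and 142 of 15274 higher in BF10 against αCSF1R. FPKM without rescaling called 157 of 14501 higher in BF10 against αCSF1R. A pseudocount of 0.1, no filter, a fit on the compared groups only and each of the 12 fits without 1 library called 0 members and 0 pathway genes. Adjusted p over the alternatives ran from 0.000469 to 0.955 for Tgfbi in αCSF1R against control IgG, from 6.55e-05 to 0.740 in BF10 against αCSF1R and from 0.00215 to 0.982 in the difference of differences. Without αCSF1R 4 and 8 in turn, the first stood at -2.32 and -1.08. The set-term fits without 1 library were added after seeing the data. In fits on the lower-sum libraries the lone control library was assumed to vary like the other groups.

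Whether the replicate numbers in the titles pair the samples could not be told. The deviations of 7 same-numbered pairs correlated from -0.663 to 0.417. The 2 above 0.1 (0.417 and 0.349) joined libraries of the same set. All others, from -0.663 to -0.26, crossed the library sets, so the correlations could not separate pairing from the set. With the replicate number as a block 0 members and 0 pathway genes were called in every comparison.

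None of the following differences passed the test in any fit, and their sign changed with the setting (log2 values). With median of ratios scaling the reversed values were, in BF10 against control Inhba -0.22, in IL-10-Fc against control Tgfb1 -0.092, Tgfbr1 -0.25 and Inhba -0.11, in αCSF1R against control Tgfbr1 -0.22 and Inhba -0.21, in BF10 against αCSF1R Inhba -0.0038, in the difference of differences Tgfbr1 0.085 and Inhba 0.11. With the replicate block the reversed values were, in BF10 against control Tgfbr1 0.38, in αCSF1R against control Tgfb1 0.38, in BF10 against IL-10-Fc Tgfb3 0.28 and Inhba 0.19, in BF10 against αCSF1R Tgfb2 -0.30, Tgfb3 -1.17, Tgfbr2 -0.78, Inhba -0.33 and Thbs1 -0.87, in the difference of differences Tgfb1 -0.19. With the lower-sum libraries only the reversed values were, in BF10 against control Tgfb3 -0.27 and Inhba -0.12, in IL-10-Fc against control Tgfb3 -0.23, Tgfbr1 -0.23 and Thbs1 -0.13, in αCSF1R against control Tgfb3 -0.28, Tgfbr1 -0.29 and Thbs1 -0.062, in BF10 against IL-10-Fc Tgfb1 -0.14, Tgfb2 0.073, Tgfbr2 0.064 and Thbs1 0.27, in BF10 against αCSF1R Inhba -0.35, in the difference of differences Tgfb1 -0.075, Tgfb3 0.24, Tgfbr1 0.11 and Thbs1 0.33. With the library set as a term the reversed values were, in BF10 against control Tgfb3 -0.16 and Inhba -0.21, in IL-10-Fc against control Inhba -0.039, in αCSF1R against control Tgfb3 -0.46, Tgfbr1 -0.15, Tgfbr2 -0.0025, Inhba -0.33 and Thbs1 -0.079, in the difference of differences Tgfb3 0.28 and Inhba 0.16. On FPKM without rescaling the reversed values were, in BF10 against control Inhba -0.035, in IL-10-Fc against control Tgfbr1 -0.035, in αCSF1R against control Tgfbr1 -0.17 and Inhba -0.15, in the difference of differences Inhba 0.0094. Over the fits without 1 library the sign also changed, in BF10 against control Tgfbr1 -0.20 to 0.21 and Inhba -0.22 to 0.38, in IL-10-Fc against control Inhba -0.047 to 0.64, in αCSF1R against control Tgfb1 -0.43 to 0.23, Tgfb3 -0.21 to 1.43, Tgfbr1 -0.16 to 0.24, Inhba -0.54 to 0.69 and Thbs1 -0.013 to 1.32, in BF10 against IL-10-Fc Tgfb1 -0.14 to 0.16, Tgfb2 -0.70 to 0.27, Tgfb3 -0.81 to 0.59, Tgfbr2 -0.57 to 0.28, Inhba -0.49 to 0.054 and Thbs1 -0.75 to 0.65, in BF10 against αCSF1R Tgfb2 -0.12 to 0.92, Tgfb3 -0.76 to 1.07, Tgfbr1 -0.22 to 0.083, Tgfbr2 -0.40 to 0.82, Inhba -0.55 to 0.68 and Thbs1 -0.54 to 0.95, in the difference of differences Tgfb1 -0.19 to 0.47, Tgfb3 -1.61 to 0.22, Inhba -0.86 to 0.37 and Thbs1 -1.41 to 0.085. The Tgfb1 share differences reversed with the lower-sum libraries only, to 3.48 percentage points (BF10), 5.05 (IL-10-Fc) and 2.23 (αCSF1R) from control IgG and to -1.57 in BF10 against IL-10-Fc, and without 1 library they ran from -5.81 to 5.23 in BF10 against IL-10-Fc and from -5.79 to 8.05 in BF10 against αCSF1R. The cause of these changes was not tested. The depth of each library is not in the deposited values. With 3 libraries in a group, of which 1 or 2 were higher-sum, the fit on treatment groups is limited in what it can call.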
